A study of Schizosaccharomyces pombe with 24 samples.

Results

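Mating of fission yeast, Schizosaccharomyces pombe, starts with an exchange of peptide pheromones, and 10 genes of that exchange are described here out of 6987 genes listed. They were taken by their names and comprise the M-factor precursor genes mfm1, mfm2 and mfm3, the M-factor exporter gene mam1, the P-factor receptor gene mam2, the P-factor precursor gene map2, the M-factor receptor gene map3, the protease genes sxa1 and sxa2, and the regulator gene rgs1. Poly(A)+ RNA was sequenced from 8 groups, each with 3 biological replicates, 24 libraries in all. WT cells (strain AGP72, genotype h-) and pho7Δ cells (strain AGP83, genotype h- with pho7 replaced by the natMX marker) were in log phase in YES, a rich yeast extract medium, and are called 0 h. The other 6 groups were the same pho7Δ strain in ePMGT medium without phosphate, sampled at 4 h, 8 h and 12 h and then every 12 h up to 48 h. Phosphate acquisition genes are driven by Pho7, a DNA-binding zinc-finger protein. All groups carry the h- mating type, each genotype is 1 strain, and no starved WT cells were among the groups, so genotype and starvation cannot be told apart where a starved group is set against WT. The move from YES to ePMGT changed the medium together with its phosphate, and these cannot be told apart either.

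Haploid fission yeast cells are of an M (h-) or a P (h+) mating type. M cells make M-factor, a short farnesylated peptide cut from a precursor and pumped out by Mam1, and they sense P-factor through the receptor Mam2. P cells make P-factor from the Map2 precursor through the secretory pathway and sense M-factor through Map3. Both receptors act on the G protein Gpa1 and a MAP kinase chain that ends in Spk1, and the HMG-box factor Ste11 drives transcription of the mating genes, classically when nitrogen runs out. Sxa1 and Sxa2 are proteases that degrade pheromone outside the cell, and Rgs1 turns the G protein signal down.

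The M-factor genes encode the same end product, and their coding sequences are shown because the counts of the 3 genes moved apart. All come from the RefSeq annotation of ASM294v3, 5′ to 3′ on the coding strand, with the codons of the mature peptide in capitals, which end at the cysteine codon of the farnesylation box. The mfm1 coding sequence lies on chromosome I at 4917099 to 4917298 (plus strand), that of mfm2 on chromosome I at 2913008 to 2913184 (minus strand) and that of mfm3 on chromosome II at 700364 to 700556 (plus strand). Each is split over 2 coding exons.
mfm1: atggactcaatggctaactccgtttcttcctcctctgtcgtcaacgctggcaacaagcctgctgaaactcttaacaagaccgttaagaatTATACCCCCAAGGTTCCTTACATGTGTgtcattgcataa
mfm2: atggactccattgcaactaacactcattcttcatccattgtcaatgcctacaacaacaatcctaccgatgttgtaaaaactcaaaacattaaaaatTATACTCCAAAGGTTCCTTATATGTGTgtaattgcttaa
mfm3: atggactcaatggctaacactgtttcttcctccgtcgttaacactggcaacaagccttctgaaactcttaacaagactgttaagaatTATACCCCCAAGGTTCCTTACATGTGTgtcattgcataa
The 9 capital codons translated to 1 and the same peptide in all 3 genes. Between mfm1 and mfm3 none of the 27 capital bases differed, and the aligned coding sequences were 93.0% identical. Against mfm2, 3 of these bases differed in both, and the identity was 68.8% for mfm1 and 70.6% for mfm3. No window of 51 bases from the exons of these genes occurs at a second place in the genome, so near-identity did not leave reads of that length without a unique match.

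The bases before the start codons were searched for the core of the Ste11 site, CTTTGTT, on both strands and over 500 bases. It was found before 7 of the 10 genes, against 915 of 5123 protein-coding genes with a full window (17.9%). The 7 were mfm1, mfm2, mfm3, mam1, mam2, sxa2 and rgs1, while map2, map3 and sxa1 had no match in this window. Only the exact core was searched, so the lack of a match before these genes is no sign of a missing Ste11 site. The match nearest the start codon is shown for each of the 7 genes. They include every gene called as higher at 4 h, by the limits given below, and every M cell gene of the 10. Of the 7, mfm3 and sxa2 were not called at 4 h. Whether the motif bears on these calls was not tested. Each match is shown in 30 bases of ASM294v3 read along the strand that carries the motif, with the motif in capitals.
mfm1: aaactgagacttCTTTGTTggtcggaccca
mfm2: aaactgtgatctCTTTGTTcatttgcctat
mfm3: aatctgagacttCTTTGTTggttgggccta
mam1: acacaatgggcCTTTGTTaggtactctcca
mam2: ccaataattcctCTTTGTTtagaatttcca
sxa2: tcgctgggtgtCTTTGTTgcccatctctat
rgs1: tttaatgatttCTTTGTTtaaaagaaagcg
In that order the motif lies 163, 144, 164, 118, 130, 322 and 456 bases before the start codon. The annotated 5′ leader of sxa2 is 435 bases long, so its match lies within the transcribed part and little before it was searched. For rgs1 the leader is 373 bases long, and the match lies before it. The windows are on chromosome I at 4916925 to 4916954 (minus strand) for mfm1, at 2913310 to 2913339 (plus) for mfm2, at 4780547 to 4780576 (minus) for mam2, at 714318 to 714347 (minus) for sxa2 and at 679709 to 679738 (plus) for rgs1, and on chromosome II at 700189 to 700218 (minus) for mfm3 and at 2600535 to 2600564 (minus) for mam1. The M-factor genes and mam2 carry the motif against the direction of the gene, and mam1, sxa2 and rgs1 along it. TCGG, one form of the Pho7 core, was found before 7 of the 10 genes too, but 65.3% of all protein-coding genes have it, and the other form, TCGC, was not counted. The full Pho7 consensus dodecamer, which 0.371% of genes have, was found before none of the 10. The tgp1 promoter site that the study reports as bound by Pho7 does not match this dodecamer either. A missing match is therefore no sign of a missing site. The study lists mfm1 and rgs1 among its Pho7-dependent genes with candidate Pho7 sites upstream. By that term it means genes induced less in starved pho7Δ cells than in starved WT cells. Without starved WT cells among the groups, that comparison could not be made here. A match is a description of letters and not a measured site.

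The deposited values are averages of 3 libraries per group, in normalized read counts. Each average was solved for the whole reads of its 3 libraries, which succeeded for 98.7 to 99.4% of genes in a group and for all 10 genes in all 24 libraries. Reads assigned to solved genes ranged from 9791785 to 21893391 per library, without 40 to 92 highly expressed genes of a group that were not solved. The libraries of a group are called A, B and C, letters that carry no replicate number of the labels. In bulk RNA of this kind fewer cells of a type and less RNA per cell cannot be told apart. The targeted gene pho7 had an average of 3147 in WT and 833 in pho7Δ at 0 h (26.5% of WT), and it fell to 334 at 48 h. Of 9 M cell markers 7 were above 100 in a group, and their summed level ranged from 4992 to 13699. The mating-type genes mat1-Mc and mat1-Mi, which define M cells, were listed at 0 in every group. All 51-base windows of both genes occur at more than 1 place in the genome. Of 7 P cell markers 4 were among the genes listed, and their sum ranged from 6134 to 31586, most of it from sxa1, in strains labelled h-. The P-factor gene map2 was high in WT too, at 3098 per kb of exon. The highest M cell gene of the 10 in WT, mam2, was at 2567. In pho7Δ at 0 h map2 was at 410 per kb, below mfm2 at 3527. Levels of these markers in WT thus did not sort by the labelled mating type.

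Loss of Pho7 in rich medium moved these genes in both directions. The receptor gene mam2 and the P-factor gene map2 were 8.44-fold and 7.56-fold lower in pho7Δ cells than in WT, and mfm3 and sxa1 were 3.56-fold and 2.12-fold lower. Within the same family mfm2 was 2.77-fold higher. A call needed a fitted 2-fold change, an adjusted p of 0.05 or below and an average of 100 in the higher group, from limma with Benjamini-Hochberg adjustment over 5684 genes. By this limit 1 of the 10 genes was higher, against 7.55% of all genes tested, and 4 were lower, against 11.6%. The median log2 difference of the 10 was -0.09, and that of all genes 0.06. The other 5 genes were not called. The plot of both comparisons shows the spread of these differences.

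**Figure D1:**
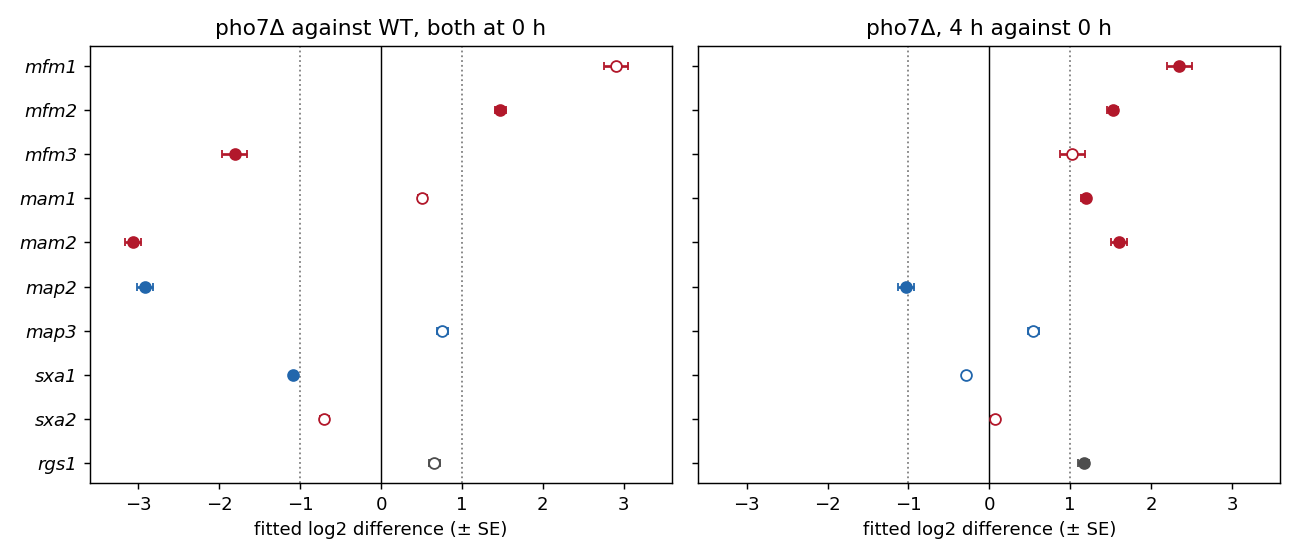
Fitted log2 differences (x axis, bars show the SE, n = 3 libraries a group) of the 10 genes (y axis) for pho7Δ against WT at 0 h (left) and for pho7Δ at 4 h against 0 h (right). Filled points passed the call, dotted lines mark the 2-fold limit, and red, blue and grey mark M cell genes, P cell genes and rgs1. On the left mam2 stands at -3.06 and map2 at -2.92, and on the right mam2 stands at 1.61 and map2 at -1.03.

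Among the M-factor genes mfm1 was nearly silent in WT. It is at chromosome I, 4917015 to 4917521 (plus strand, 2 exons, SPAPB8E5.05). The WT libraries had 10.7, 7.77 and 16.8 normalized counts, and the pho7Δ libraries at 0 h had 93.7, 84.6 and 93.4. Every pho7Δ library was above every WT library, a difference of 2.90 ± 0.15 on the log2 scale (SE, adjusted p = 8.00e-15 by limma), but mfm1 stayed under the level limit for a call. After transfer the libraries had 429, 537 and 439 at 4 h, 999.6, 1061 and 1091 at 8 h, and 1168, 1084 and 1053 at 12 h. These were the highest values of the course, 12.2-fold over pho7Δ at 0 h in the averages of 12 h. Later libraries had 466, 545 and 436 at 24 h, 389, 414 and 339 at 36 h, and 343, 339.8 and 346 at 48 h. At 48 h the level was still 3.79-fold above that of 0 h (1.91 ± 0.15 on the log2 scale, adjusted p = 1.89e-11 by limma). The averages of 8 h and 12 h did not differ beyond their spread, nor did those of 4 h and 24 h, nor those of 36 h and 48 h.

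The gene mfm2 gave most of the M-factor reads in all groups. It lies on chromosome I at 2912762 to 2913250 (minus strand, 2 exons, SPAC513.03). WT libraries had 522, 643 and 542 normalized counts, and pho7Δ libraries at 0 h had 1603, 1525 and 1601. The groups did not overlap, and the difference was 1.47 ± 0.07 on the log2 scale (adjusted p = 9.68e-16 by limma). Its highest level came at 4 h, with 4343, 4748 and 4516, a rise of 2.88-fold over 0 h (1.52 ± 0.07, adjusted p = 1.13e-15 by limma). The libraries had 3693, 3998 and 4179.7 at 8 h, 2788, 2748 and 2691 at 12 h, 1288, 1624 and 1433 at 24 h, and 1118, 1180.0 and 1239 at 36 h. Per kb of exon the average of 4 h was 10147, the highest of the 10 genes at that time, with sxa1 next at 5150.1. By 48 h they were at 1049, 1068 and 1059.8, below all pho7Δ libraries of 0 h and above all WT libraries. The peak of mfm2 was thus earlier than that of mfm1, whose levels at 8 h were 2.24-fold above those of 4 h (adjusted p = 3.64e-07 by limma).

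The gene mfm3 was the low member of the family in starved cells and went the other way on loss of Pho7. It lies on chromosome II at 700364 to 700700 (plus strand, 2 exons, SPBPJ4664.03). WT libraries had 116, 138 and 143 normalized counts, and pho7Δ libraries at 0 h had 33.0, 44.2 and 34.2. The groups did not overlap, and mfm3 fell by 1.81 ± 0.15 on the log2 scale (adjusted p = 6.89e-11 by limma). The libraries had 73.9, 94.8 and 62.8 at 4 h, 159, 158 and 175 at 8 h, and 173, 172 and 183 at 12 h. At 4 h mfm3 was 2.08-fold over 0 h (1.03 ± 0.15), with too low an average for a call. The rise from 4 h to 8 h was 2.12-fold (1.10 ± 0.15, adjusted p = 9.09e-07 by limma), and it was 0.96 on the log2 scale, under the limit, without library C of 4 h. From 24 h to 48 h the libraries ranged down from 99.5 to 51.1. The order of its levels put 12 h and 8 h first, which did not differ from each other beyond their spread, and pho7Δ at 0 h last. All of its annotated exon bases lie opposite the noncoding gene SPNCRNA.1381, whose averages went from 899 in WT and 621 in pho7Δ at 0 h to 506 at 4 h and 411 at 48 h, a course unlike that of mfm3. The libraries keep strand, but no source used here says whether the counting did, and the part of these reads in mfm3 was not tested.

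Between the 3 genes the shares of M-factor reads per kb of exon changed, a measure within each library that no scaling of libraries can alter. For mfm1 the share in WT was 1.53 ± 0.63% (SD, n = 3) and that in pho7Δ at 0 h 5.36 ± 0.19%, and it reached 27.1 ± 0.81% at 12 h. WT libraries gave mfm3 27.4 ± 1.98%, and pho7Δ libraries at 0 h gave it 3.56 ± 0.68%. In no starved group did a library exceed 8.53% for mfm3, while no WT library was under 26.0%. The share of mfm2 ranged between averages of 65.9% at 12 h and 91.1% in pho7Δ at 0 h, with 71.1% in WT. The plot of shares shows that mfm3 held the second place in WT and mfm1 in every pho7Δ group.

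**Figure D2:**
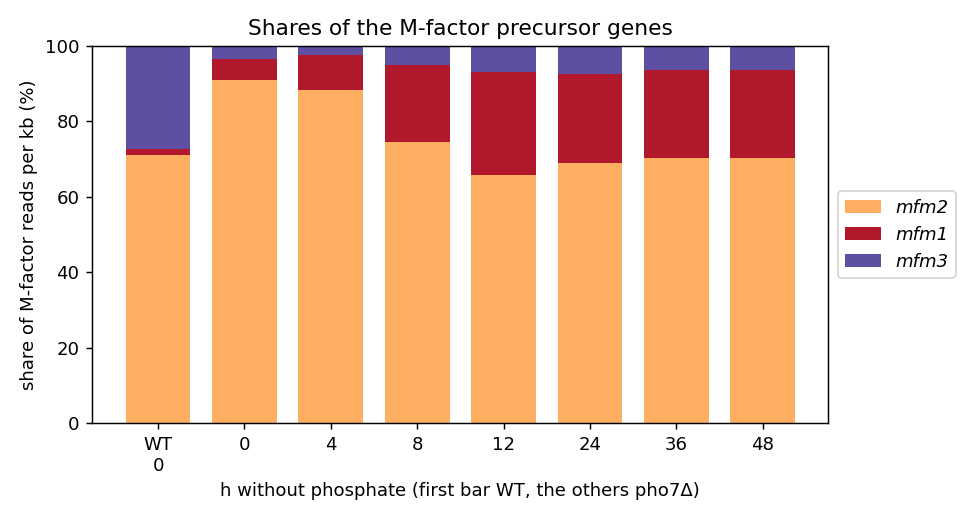
Share of each M-factor precursor gene in the M-factor reads per kb of exon (y axis, %, mean of 3 libraries) in WT and in the pho7Δ groups by hours without phosphate (x axis). The mfm1 part grows from 1.53% in WT to 27.1% at 12 h, and the mfm3 part shrinks from 27.4% in WT to 3.56% in pho7Δ at 0 h.

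The exporter gene mam1 followed mfm2. Mam1 is the ABC transporter that carries M-factor out of the cell. Its gene lies on chromosome II at 2596405 to 2600486 (minus strand, 1 exon, SPBC25B2.02c). WT libraries had 1240.0, 1123 and 1134 normalized counts and pho7Δ libraries at 0 h 1743, 1696 and 1552, a difference of 0.51 ± 0.06 on the log2 scale that was past the p limit (adjusted p = 7.93e-09 by limma) but under 2-fold. At 4 h the libraries had 3876, 3867 and 3662, a rise of 2.28-fold (1.19 ± 0.06, adjusted p = 1.82e-15 by limma). They had 2567, 2788 and 2735 at 8 h and 1894, 2007 and 2033 at 12 h. From 24 h to 48 h all 9 libraries lay between 1270.4 and 1478, with no difference beyond the spread between 24 h, 36 h and 48 h. Of its exon bases 82.6% lie opposite other genes, chiefly SPNCRNA.5728, which is not among the genes analysed here.

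The receptor gene mam2 had the largest loss of the 10 in pho7Δ cells. Mam2 is the G protein-coupled receptor by which M cells detect P-factor. The gene lies on chromosome I at 4780688 to 4781922 (plus strand, 1 exon, SPAC11H11.04) and overlaps no other annotated gene. WT libraries had 3256, 3576 and 2679 normalized counts, and pho7Δ libraries at 0 h had 379, 388 and 360.1. The difference was -3.06 ± 0.10 on the log2 scale (adjusted p = 6.36e-19 by limma). In starved cells it first rose, to 1134, 1229.6 and 1082 at 4 h (3.06-fold over 0 h, 1.61 ± 0.10, adjusted p = 3.91e-13 by limma), and then fell through 818, 958 and 872 at 8 h and 540.3, 564 and 619 at 12 h. The libraries had 222, 314 and 264 at 24 h, 196, 208 and 217 at 36 h, and 196, 184 and 198 at 48 h. At its highest, the level in starved cells was still 2.76-fold below WT. All neighbours in the order of its 8 levels differed (adjusted p from 9.75e-13 to 0.0165 by limma) except 36 h and 48 h.

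The P-factor gene map2 was the 1 member called as lower at 4 h than at 0 h. Map2 is the precursor of P-factor, a peptide that its precursor holds in several copies. The gene lies on chromosome III at 986014 to 986684 (minus strand, 1 exon, SPCC1795.06), and 42 of the 621 windows of 51 bases in its exon occur more than once, all of them within map2 itself. WT libraries had 2114, 2083 and 2039.9 normalized counts, and pho7Δ libraries at 0 h had 282, 305 and 238. The difference was -2.92 ± 0.10 on the log2 scale (adjusted p = 8.20e-19 by limma). At 4 h the libraries had 131, 136 and 135, the lowest of the course. This fall of 1.03 ± 0.10 on the log2 scale (adjusted p = 8.04e-10 by limma) was 0.95, under the 2-fold limit, without library B of 0 h, the highest of the 3. The libraries had 178, 168 and 181 at 8 h and then stayed between 188 and 237 from 12 h to 48 h, with ranges that overlapped among these 4 times.

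The M-factor receptor gene map3 was nearly flat in starved cells. Map3 is the receptor of P cells. Its gene lies on chromosome I at 2833231 to 2834988 (minus strand, 1 exon, SPAC3F10.10c). WT libraries had 176, 195 and 184 normalized counts, and pho7Δ libraries at 0 h had 306, 311 and 324, 0.76 ± 0.07 higher on the log2 scale (adjusted p = 5.04e-10 by limma) and under 2-fold. The 18 starved libraries lay between 382 and 483, all above those of 0 h. The starved groups did not differ from their neighbours in the order of levels beyond the spread. Of its exon bases 85.0% lie opposite his6, a histidine biosynthesis gene whose averages ran from 3023 in WT to 2053 in pho7Δ cells of 0 h, then 1889 at 4 h and 3955 by 24 h. Whether reads of his6 entered the map3 counts was not tested.

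Of the proteases, sxa1 gave the highest level of the 10 genes per kb of exon in WT and was lower at each time up to 24 h than at the time before, by less than 2-fold a step. Sxa1 is an aspartyl protease listed here with the P cell genes, although all cells sequenced were labelled h-. The gene lies on chromosome I at 3332554 to 3334714 (plus strand, 1 exon, SPAC26A3.01) with no overlapping gene. Its level per kb of exon was 13357 in WT, against 3098 for map2 and 2567 for mam2, the next 2. The WT libraries had 29049, 30059.6 and 27482 normalized counts and those of pho7Δ at 0 h 13552, 13713 and 13504, a difference of -1.09 ± 0.04 on the log2 scale (adjusted p = 5.67e-19 by limma). The libraries then had 11072, 11100.0 and 11216 at 4 h, 8248, 8021 and 8166 at 8 h, and 6744, 6349 and 6411 at 12 h. By 24 h they were at 4761, 4669.6 and 4847, and the averages of 36 h (4493) and 48 h (4450.4) did not differ beyond their spread, nor did those of 24 h and 36 h. The 48 h libraries, with 4469, 4566 and 4315, were all below those of 24 h, a difference for which no test result is given here. At 48 h sxa1 was 3.05-fold below pho7Δ at 0 h (-1.61 ± 0.04, adjusted p = 1.39e-22 by limma).

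The carboxypeptidase gene sxa2 changed least of the 10 over the course in pho7Δ. Sxa2 is secreted by M cells and inactivates P-factor. The gene lies on chromosome I at 712217 to 714449 (minus strand, 1 exon, SPAC1296.03c). WT libraries had 887, 829 and 855 normalized counts and pho7Δ libraries at 0 h 529, 545 and 508, which fell by 0.70 ± 0.06 on the log2 scale (adjusted p = 5.04e-11 by limma), under 2-fold. All 18 starved libraries lay between 439 and 619, and the highest average was 1.31-fold above the lowest. Below WT, no neighbours in the order of its levels differed beyond their spread. Small differences between groups further apart did pass the p limit. Against 0 h sxa2 was higher at 8 h (0.17 ± 0.06 on the log2 scale, adjusted p = 0.0101 by limma). It was lower at 36 h (-0.22 ± 0.06, adjusted p = 0.00107 by limma). At 4 h, 12 h and 48 h it did not pass the p limit against 0 h. Of its exon bases 70.1% lie opposite other genes, cox4 and the noncoding SPNCRNA.2305.

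The regulator gene rgs1 rose and fell with mam1. Rgs1 speeds the return of the G protein to its resting state. The gene lies on chromosome I at 679803 to 681890 (plus strand, 1 exon, SPAC22F3.12c). WT libraries had 380.3, 369 and 414 normalized counts and pho7Δ libraries at 0 h 594, 661 and 584, a difference of 0.66 ± 0.07 on the log2 scale (adjusted p = 3.65e-09 by limma) and under 2-fold. At 4 h the libraries had 1388, 1449 and 1295, a rise of 2.25-fold (1.17 ± 0.07, adjusted p = 1.45e-13 by limma). They had 814, 939 and 862 at 8 h and 587, 604 and 572 at 12 h, where the level no longer differed from that of 0 h beyond the spread (adjusted p = 0.424 by limma). From 24 h to 48 h they lay between 423 and 559. Of its exon bases 32.5% lie opposite SPNCRNA.675, with averages from 93.4 to 164.

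**Figure D3:**
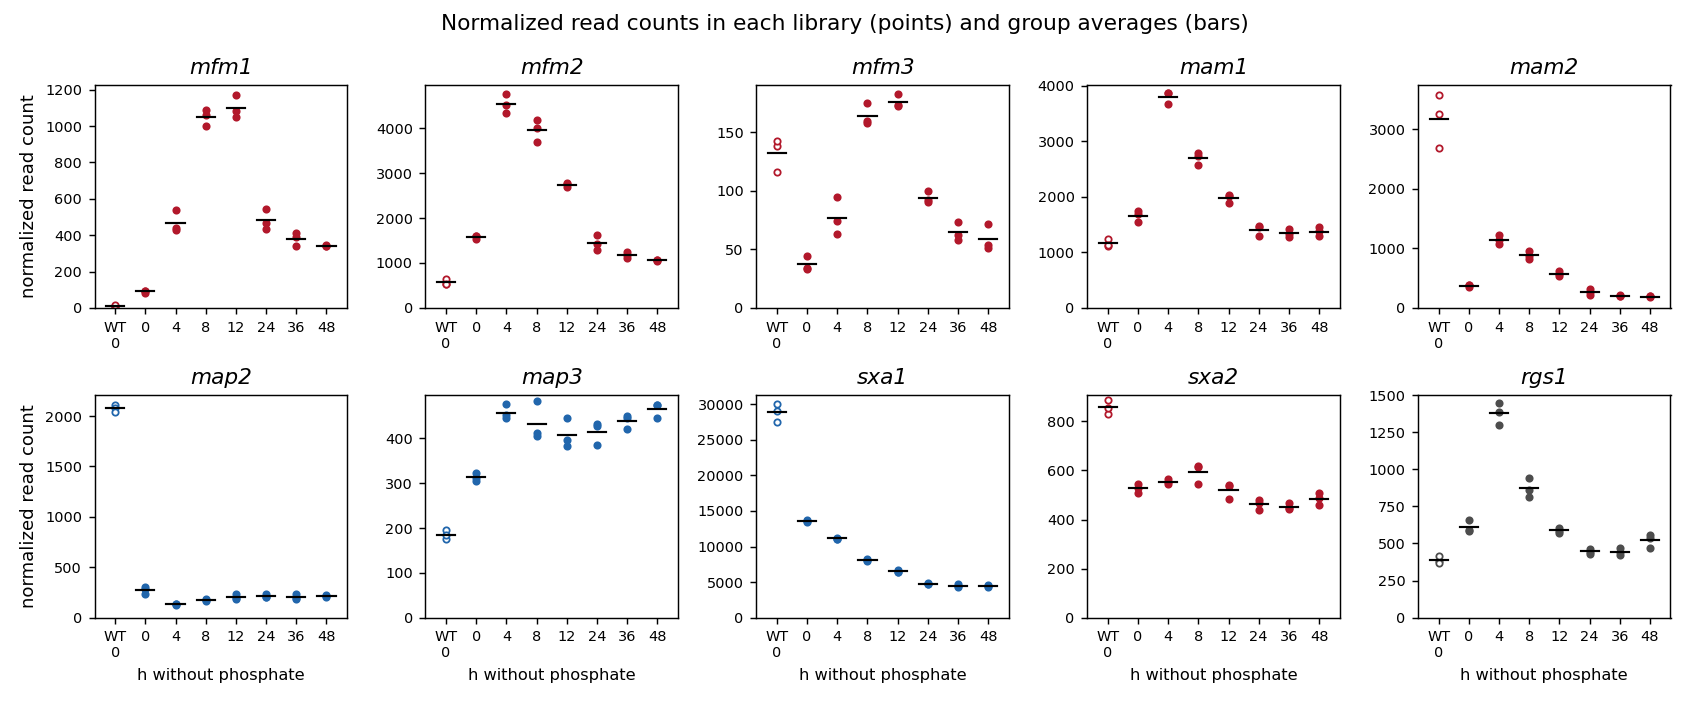
Normalized read counts (y axes, each from 0) of the 10 genes in every library (points) with the group averages (bars), in WT (open points) and in pho7Δ by hours without phosphate (x axes). Values of mam2 and map2 in WT, at 2679 or above and 2039.9 or above, exceed all pho7Δ values of these genes, while mfm1, mfm2, mam1 and rgs1 have their highest values between 4 h and 12 h.

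Over the first 4 h without phosphate 5 of the 10 genes were called as higher, mfm1, mfm2, mam1, mam2 and rgs1, against 5.38% of all genes tested. Without a call, map3 was higher by less than 2-fold (0.54 ± 0.07 on the log2 scale, adjusted p = 2.11e-07 by limma). The rise of mfm3 had too low an average for a call. The 1 gene called as lower, map2, stands against 4.03%, while sxa1 was lower by less than 2-fold (-0.29 ± 0.04 on the log2 scale, adjusted p = 7.48e-08 by limma). The median log2 difference of the 10 was 1.10, and that of all genes 0.02. By 8 h 4 were higher than at 0 h, mfm1, mfm2, mfm3 and mam2, against 11.6%, and 0 were lower, against 7.71%. Of the 10 genes 2 were higher at 12 h, mfm1 and mfm3, against 13.8%, and sxa1 was lower, against 8.00%. From 24 h on mfm1 was the 1 gene called as higher and sxa1 the 1 called as lower. At 24 h mfm3 was 2.53-fold over 0 h (1.33 ± 0.15, adjusted p = 1.46e-08 by limma), but its average of 94.0 was under the level limit. All genes tested gave 17.1% higher and 11.0% lower at 24 h, 17.3% and 12.1% at 36 h, and 17.5% and 11.9% at 48 h. Late in starvation, then, the share of the 10 genes called was close to or below that of all genes. The calls at 0 h and in starvation share the pho7Δ libraries of 0 h.

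Between consecutive times the calls stood at 2 steps. From 4 h to 8 h mfm1 and mfm3 rose, 2 of 10 against 2.73% of all genes, and 0 fell, against 0.457%. From 12 h to 24 h mfm1 and mam2 fell, by 1.19 ± 0.15 and 1.12 ± 0.10 on the log2 scale (adjusted p = 3.93e-07 and 1.33e-09 by limma), 2 of 10 against 0.827%, and 0 rose, against 1.02%. Without library A of 24 h the difference of mam2 was -0.99, under the limit, and 1 gene was called. Without library B that of mfm2, -0.93 with all libraries, was -1.01 and passed it. No gene of the 10 was called from 8 h to 12 h, from 24 h to 36 h or from 36 h to 48 h, where 0.704%, 0.211% and 0.0528% of all genes were called in either direction by limma. In those 3 steps 7, 5 and 2 of the 10 had an unadjusted p under 0.05.

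**Figure D4:**
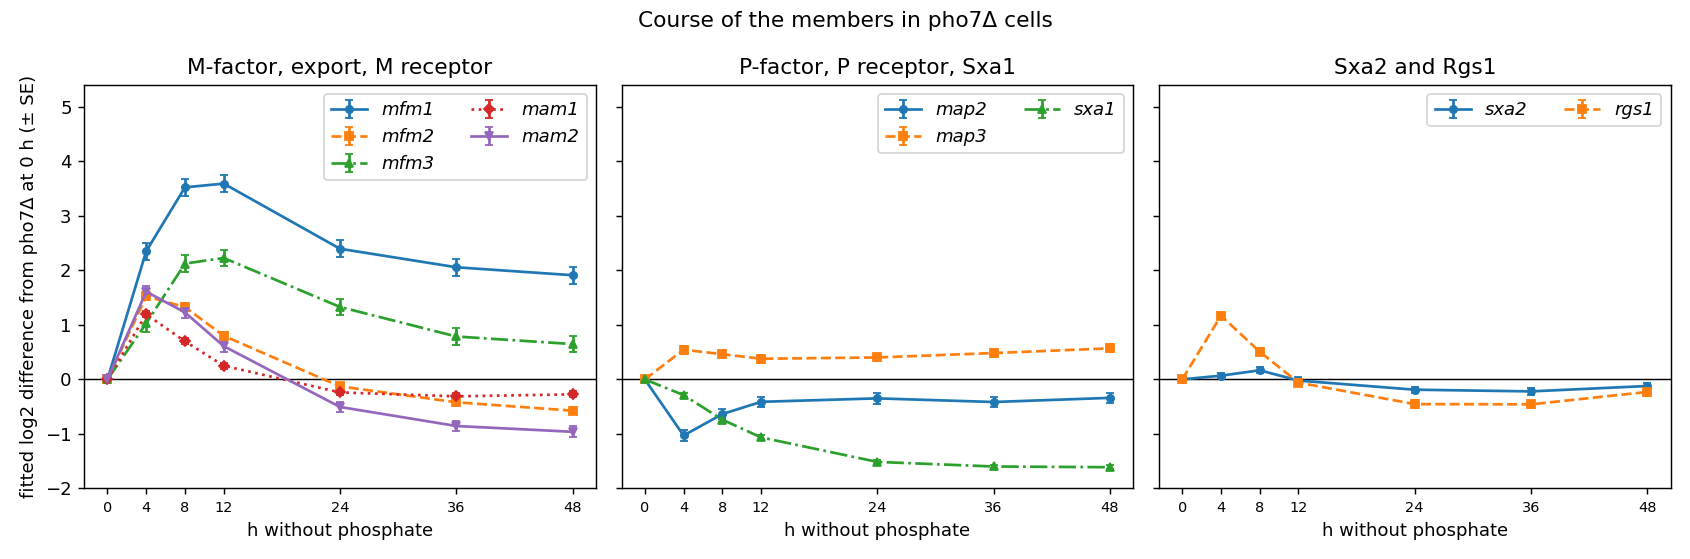
Fitted log2 difference from pho7Δ at 0 h (y axis, bars show the SE, n = 3 libraries a group) by hours without phosphate (x axis) for the M-factor, export and M cell receptor genes (left), the P cell genes (middle), and sxa2 and rgs1 (right). Lines on the left rise at 4 h, with mfm2, mam1 and mam2 below the 0 h line from 24 h on and mfm1 at 1.91 above it at 48 h, while sxa1 in the middle goes down to -1.61.

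Set against WT at 0 h, 8 of the 10 genes were called at 4 h and at 8 h, 6 at 12 h, 6 at 24 h, 7 at 36 h and 6 at 48 h. All genes tested gave 28.4%, 33.9%, 35.2%, 38.8%, 39.0% and 38.9% in either direction at these times. In each starved group mam2, map2 and sxa1 were lower than in WT and mfm1 and map3 were higher. For mam2 the gap to WT was least at 4 h (2.76-fold) and reached 16.5-fold at 48 h, and for map2 it was 15.6-fold at 4 h and 9.61-fold at 48 h. The level of mfm1 was 93.8-fold over WT at 12 h and 29.2-fold at 48 h, on WT levels of 11 to 17 reads a library. The call of mfm3 as lower at 36 h (-1.02 ± 0.15, adjusted p = 9.09e-07 by limma) went under the 2-fold limit when any of 4 libraries was left out in turn, WT B or C or 36 h A or B, with a smallest difference of -0.96.

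The genes around this exchange were counted from lists. Of 10 genes of the pheromone relay inside the cell, 1 was lower in pho7Δ than in WT at 0 h, ste4, the adaptor of the kinase Byr2 (-1.42 ± 0.06, adjusted p = 6.9e-17 by limma), against 11.6% of all genes, and 0 were higher, against 7.55%. At 4 h 1 rose, against 5.38%, the MAP kinase gene spk1, from an average of 1527 to 3592 (1.23 ± 0.05, adjusted p = 5.9e-16 by limma), and 0 fell, against 4.03%. At 48 h 2 were lower than at 0 h, against 11.9%, shk1, a PAK kinase gene, at -1.66 and ste6, the Ras activator gene, at -1.10. The medians of the list in these 3 comparisons were 0.07, 0.34 and -0.20.

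Of 12 transcription factor genes of mating 8 had a row and 4 were tested. At 0 h rst2, an activator of ste11, was higher in pho7Δ (1.07 ± 0.04) and prr1, a response regulator that works with Ste11, was lower (-1.09 ± 0.03), each 1 of 4, against 7.55% higher and 11.6% lower of all genes. At 4 h 0 of the 4 were called, against 5.38% higher and 4.03% lower. The ste11 averages were 2615 for WT, 2192 for pho7Δ at 0 h and 4367 at 4 h, a difference from 0 h of 0.995 ± 0.06 on the log2 scale (adjusted p = 8.17e-14 by limma), just under the 2-fold limit. For map1, the MADS-box factor of P cell genes, the averages were 591, 337 and 552. The cassette genes mat3-Mc and mat3-Mm had no average above 0.361, and all their 51-base windows too occur at more than 1 place in the genome.

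Of 4 genes of pheromone maturation 1 was lower in pho7Δ at 0 h, krp1, the protease that cuts the P-factor precursor (-1.53 ± 0.04, average 4336 and 12480.4 in WT), where all genes gave 11.6%. At 4 h 0 of the 4 were called, where all genes gave 5.38% higher and 4.03% lower, and at 48 h, where all genes gave 11.9%, krp1 (-1.13 ± 0.04) and mam4, the methyltransferase gene of M-factor (-1.05 ± 0.06), were lower than at 0 h. Of 7 genes of agglutination and cell fusion 2 were lower in pho7Δ at 0 h, prm1 at -1.80 ± 0.05 and cfr1 at -1.07 ± 0.04, against 11.6% of all genes. At 4 h dni2 rose, from an average of 31.8 to 104 (1.66 ± 0.15, adjusted p = 4.2e-10 by limma), and at 48 h it was the 1 gene of this list called (2.27 ± 0.15), where all genes gave 5.38% and 17.5% higher. The agglutinin genes mam3 of M cells and map4 of P cells had differences of 0.88 ± 0.05 and 0.63 ± 0.05 at 4 h, both under 2-fold.

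Likeness of pattern was taken as Pearson's r over the 8 log2 group averages, across 4933 protein-coding genes outside the 10, as a description of groups that share libraries and depth. Nearest to mfm1 were tad2, a tRNA adenosine deaminase gene, arg6, for acetylglutamate synthase, and SPBC1198.06c, a predicted mannosidase gene (r = 0.997, 0.996 and 0.994). Nearest to mam2 were cyc3, for cytochrome c heme lyase, bio2, for biotin synthase, and SPBC32F12.12c, for a predicted Golgi membrane protein (0.987, 0.984 and 0.982). Nearest to map2 were imt3, a mannosyltransferase gene, poz1, of the telomere complex, and SPAC11E3.12, for a mitochondrial thioredoxin family protein (0.997, 0.996 and 0.994). For rgs1 they were SPBC15D4.08c, a gene known only in this genus, swd22, of the mRNA cleavage and polyadenylation machinery, and dcp2, for the decapping enzyme (0.982, 0.971 and 0.967).

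Among the 10 genes themselves the closest pair by the same measure was mam1 and rgs1 (r = 0.98), followed by mfm2 and mam1 (0.94), mam2 and sxa2 (0.92), mfm1 and map3 (0.92) and sxa1 and sxa2 (0.90). The M-factor genes were less alike, with 0.75 for mfm1 and mfm2, 0.24 for mfm2 and mfm3 and 0.23 for mfm1 and mfm3. The lowest value was that of map2 and map3 (-0.96), the P-factor gene and the receptor gene of the same cell type. The WT levels of mam2 and map2 stand far above those of the other 7 groups.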

How the data were processed

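The study sequenced strand-specific poly(A)+ libraries, 3 biological replicates per group. Per the labels and methods the authors mapped reads with HISAT2 (2.1.0), counted them with HTSeq (0.10.0) and normalized with DESeq2. Whether HTSeq counted by strand is stated in no source used here. The deposited normalized read counts, a signal per gene, are averages over the 3 libraries of a group. The authors' own comparison columns (a mean over groups, log2 fold changes, their errors, test statistics and p-values) were not used. Each average was solved for the 3 whole read counts behind it and kept where the solution was unique, with rows left out where it was not (177 of 6987 genes in 1 group or more). Values per library were tested on log2(normalized count + 1) with limma 3.58.1 (R 4.3.3) with an intensity trend, all 24 libraries sharing 1 estimate of spread, over 5684 genes solved in all groups and with an average of 100 in a group. A call needed a 2-fold fitted difference, an adjusted p of 0.05 (Benjamini-Hochberg per comparison) and an average of 100 in the higher group. Fold changes in words are ratios of averages, and log2 differences are on the log2(value + 1) scale, which understates low genes. The 18 comparisons were each pho7Δ group against WT, each starved group against pho7Δ at 0 h, and consecutive times. Scripts were tested on simulated data. Identifiers matched RefSeq ASM294v3 for 6834 of 6987 rows, while the authors used ASM294v2, so positions are from the former and no coordinates of the tables were used. Alternatives were a pseudocount of 5, equal library totals, a 3-fold limit, voom weights on whole reads, no low filter, only the groups compared, and leaving out each library. All 10 genes were named, and of the lists every called gene, up to 4 a list, with ste11, map1 and the mating-type cassettes. The genes, lists and limits were chosen with earlier results of these data known.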

Additional observations from a re-analysis of the deposited data

How the results depend on the processing

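None of the alternatives turned the direction of a called difference of the 10 genes. With voom weights, with only the groups compared or with no low filter, all 180 differences kept their side of the limit. A 3-fold limit left 3 of 5 genes called for pho7Δ against WT at 0 h, 5 of 8 at 4 h, 5 of 8 at 8 h and 4 of 7 at 36 h against WT. Against pho7Δ at 0 h it left 2 of 6 at 4 h, 2 of 4 at 8 h and 1 of 2 at 24 h, and it left 0 of 2 from 4 h to 8 h and 0 of 2 from 12 h to 24 h. In all it ended 28 calls, since these lie between 2-fold and 3-fold. Leaving out 1 library at a time gave 1 to 2 genes called from 4 h to 8 h and 1 to 3 from 12 h to 24 h. For mfm3 at 36 h against WT the difference was -0.98 with a pseudocount of 5 and -0.93 with equal totals, both under the limit. Equal totals also put sxa1 at 12 h against 0 h at -0.95, under it, and mfm2 at 48 h against WT at 1.01, past it. Without library A of WT mfm2 at 36 h against WT was 0.99, under the limit. Equal totals moved every gene of a starved group against pho7Δ at 0 h by up to 0.14 on the log2 scale. No paired analysis was possible because the libraries solved from an average carry no replicate number.

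Solved genes left out 15.2 to 20.8% of the normalized signal of a group, all in highly expressed genes, so totals are partial. The least certain levels are those of mfm1 in WT, at 11 to 17 reads a library, and of mfm3. For mfm3, mam1, map3, sxa2 and rgs1 the part of reads of genes on the other strand was not tested.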
